A study of Mus musculus with 44 samples.

Results

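The matrix metalloproteinases are zinc enzymes that cut collagens, laminins, elastin and many other proteins outside the cell, and the Timps (tissue inhibitors of metalloproteinases) bind and block them. Described here are 10 genes of these families, Mmp2, Mmp3, Mmp7, Mmp9, Mmp10, Mmp12, Mmp13, Mmp14, Timp1 and Timp3, taken as a named list out of the 31414 genes to which the measured transcripts could be assigned. Their transcripts in the deposited data were summed per gene. Messenger RNA was sequenced from the gastric corpus of female BalbC mice aged 13 months. WT are wild-type mice, and HKATPase KO mice carry in every cell a disrupted Atp4b, the gene of the beta subunit of the acid pump (H+/K+ATPase) of parietal cells, so that the stomach is poor in acid and plasma gastrin is high. Mice received netazepide (NTZ, labelled yf), an antagonist of the gastrin receptor, in the solvent PEG, or PEG alone, which all groups thus share. On vehicle there were 11 WT/PEG and 13 KO/PEG libraries, and on the antagonist 9 WT/NTZ and 11 KO/NTZ libraries, 44 in all, each counted as one sample. KO/PEG holds more libraries than the mice described for that group, so some may share a mouse, and p-values that rest on KO/PEG may be too small. The labels do not say that all 44 came from separate mice, so the p-values measure only the spread between these libraries.

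Most Mmps are secreted as inactive pro-enzymes. Mmp2 and Mmp9 are the gelatinases, Mmp3 and Mmp10 the stromelysins, Mmp7 (matrilysin) a small epithelial enzyme, Mmp12 the macrophage elastase and Mmp13 the main interstitial collagenase of rodents. Mmp14 is anchored in the cell membrane and activates pro-Mmp2. Timp1 is a secreted inhibitor that binds pro-Mmp9, and Timp3 stays bound to the matrix and also blocks several Adam proteases.

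The genes of 5 members, Mmp13, Mmp12, Mmp3, Mmp10 and Mmp7, lie in this order and on the plus strand within one stretch of chromosome 9, between 7272514 and 7699585 of GRCm38. Mmp2 is on chromosome 8, Mmp9 on 2, Mmp14 on 14, Timp3 on 10 and Timp1 on X. RefSeq promoter windows (GRCm38.p6, from 250 bases before to 50 bases after the start of a gene) were matched by symbol for 8 of the 10 members, and Mmp2 and Mmp9 were not matched. The windows were searched on both strands for the AP-1 letters TGANTCA, where N is any base, the PEA3 letters AGGAAG and the TATA letters TATAAA. The AP-1 letters were found for 5 of the 8 members and in 7.81% of the 32851 windows of all genes. The members that hold them are the chromosome 9 genes. The TATA letters were also found for 5 of the 8 members, against 13.6% of all windows, and the PEA3 letters for 7 of 8 against 35.4%. A member counts if any of its windows matched, and Mmp12 and Mmp7 have an additional window, while the percentages count windows, so the shares are not fully alike. In Mmp12 the TATA letters begin 4 bases after the start. A match describes letters, not a binding site. The 80 bases before each start are printed because the members of this stretch include those with the largest differences between groups, with matched letters in capitals, 5′ to 3′ on the plus strand.
Mmp13, chr9:7272434-7272513: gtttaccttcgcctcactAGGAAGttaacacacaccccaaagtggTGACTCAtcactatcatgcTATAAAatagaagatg
Mmp12, chr9:7347294-7347373: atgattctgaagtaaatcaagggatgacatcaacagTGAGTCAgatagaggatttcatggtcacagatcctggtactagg
Mmp3, chr9:7445742-7445821: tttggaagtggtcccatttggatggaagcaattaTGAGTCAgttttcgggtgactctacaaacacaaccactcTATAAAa
Mmp10, chr9:7502262-7502341: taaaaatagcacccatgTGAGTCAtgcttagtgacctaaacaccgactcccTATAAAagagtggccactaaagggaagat
Mmp7, chr9:7692010-7692089: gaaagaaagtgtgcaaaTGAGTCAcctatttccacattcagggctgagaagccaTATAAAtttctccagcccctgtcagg
The AP-1 letters began 35 bases before the start in Mmp13, 44 in Mmp12, 46 in Mmp3, and 63 in both Mmp10 and Mmp7. Mmp12 has another RefSeq start upstream, whose window holds the PEA3 letters only, and Mmp7 another window without AP-1 letters.

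Values below are CPM, estimated counts scaled to library size with TMM normalization by edgeR, and differences are log2 fold changes from one edgeR fit of all 44 libraries over 14893 genes. A gene was called changed at a Benjamini-Hochberg adjusted p under 0.05 in edgeR's quasi-likelihood test over all these genes. The totals were 6065084 to 21945124 estimated counts per library, and a floor of 3 counts lies at 0.137 to 0.501 CPM. Atp4b had 2140 to 5738 CPM in the WT libraries and 2.28 to 40.6 CPM in the KO libraries, so every library matched its genotype label. Markers of the corpus glands summed to 115252 to 310314 CPM in WT and 16803 to 91796 CPM in KO libraries. The biopsies also held other tissue: 6 markers of squamous forestomach, Krt5 and Krt14 among them, summed to 0.97 to 358 CPM in WT/PEG, 1.13 to 2540 CPM in WT/NTZ, 2.29 to 487 CPM in KO/PEG and 20.9 to 550 CPM in KO/NTZ. Libraries also differed by transcript length, on which RNA quality can act: the slope of a library's log2 deviations from the gene means on log2 length was 0.07 to 0.24 in WT and -0.26 to 0.12 in KO libraries. It moves with the genotype, and the part of either cannot be told apart. In such bulk samples fewer cells of a type and less RNA per cell cannot be told apart. All members but Mmp7 passed the filter on low counts.

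**Figure D1:**
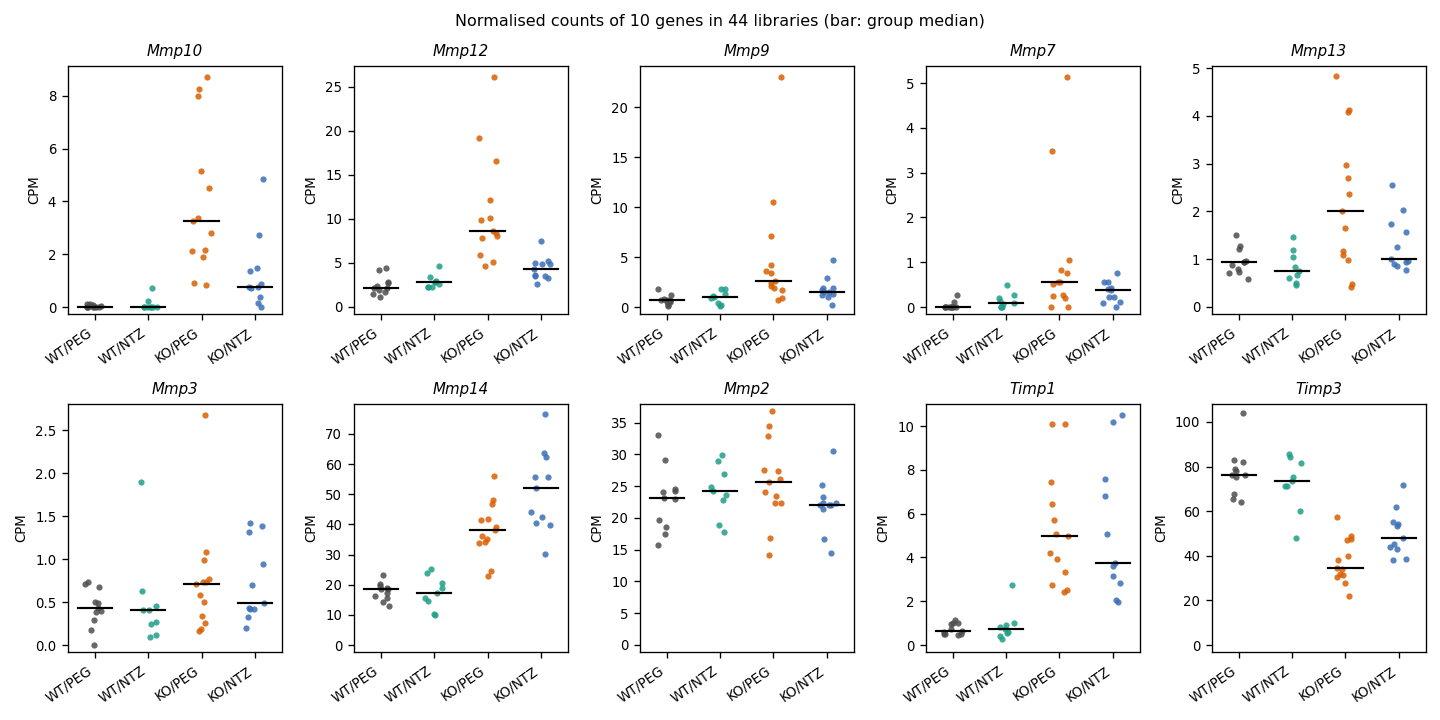
Normalised counts (CPM, linear axes) of the 10 genes, with each point 1 library and the bar the group median, for all 44 libraries. Mmp10 lies between 0.826 and 8.7 CPM in KO/PEG and at or under 0.108 CPM in WT/PEG, while Timp3 is lower in every KO/PEG library than in any WT/PEG library.

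Levels of different genes were compared per transcript length, as TPM computed here: each transcript's estimated count divided by its annotated length, summed per gene and scaled to the same total in every library, without TMM. In WT/PEG the inhibitor Timp3 had the highest level of the 10, 18.4 ± 3.58 (SD, n = 11), followed by Mmp2 with 8.43 ± 2.55 and Mmp14 with 7.72 ± 1.85 TPM. The other 7 were at or under 1.24 on this scale. In KO/PEG the order differed: Mmp14 led with 18.9 ± 4.67 (SD, n = 13), then came Mmp2 with 10.8 ± 3.15, Timp3 with 10.6 ± 3.98, Timp1 with 7.72 ± 2.76 and Mmp12 with 6.78 ± 5.06. Mmp14 was above Mmp2 in each of the 13 KO/PEG libraries, but the ranges of the libraries overlapped for all 9 pairs of neighbours in this order. Mmp2 and Timp3 did not differ beyond their spread, since Mmp2 was higher in 7 of 13 libraries. In WT/PEG the ranges were separate for 2 of 9 neighbours, Timp3 over Mmp2 and Mmp14 over Mmp12, but with 200 bases taken off each length only the latter pair was separate. KO/NTZ kept Mmp14 first with 22.9 ± 5.81 (SD, n = 11) and Timp3 next with 12.5 ± 3.25 TPM. In WT/NTZ the first 3 were those of WT/PEG, with 17.5 ± 3.63 (SD, n = 9) for Timp3.

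**Figure D2:**
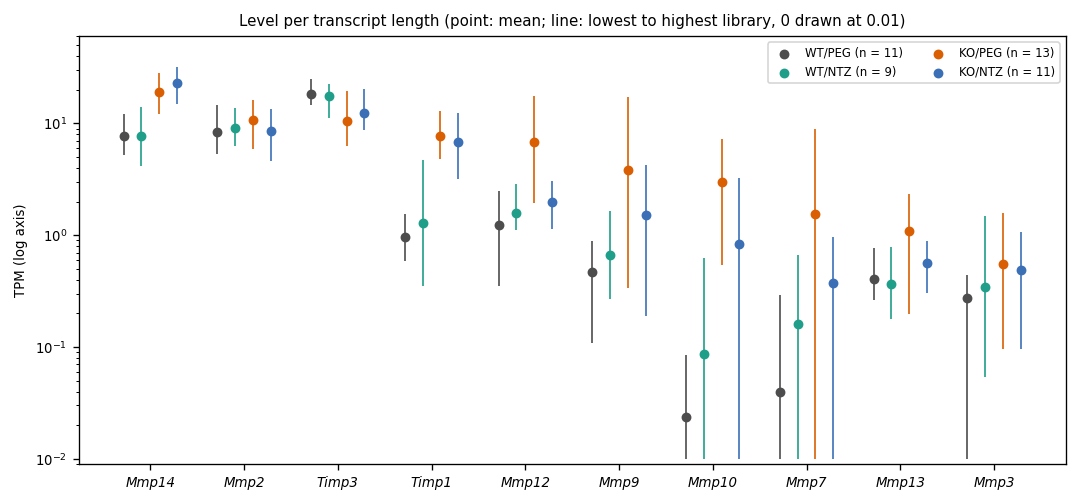
Level per transcript length of the 10 genes (TPM, log axis) in the 4 groups, with points for the mean and lines from the lowest to the highest library, and values of 0 drawn at the lower end. Timp3 has the highest mean in both WT groups and Mmp14 in both KO groups.

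The first comparison, KO/PEG with WT/PEG, asks what loss of the acid pump subunit does in mice on vehicle. Mmp9, Mmp12, Mmp13, Mmp14 and Timp1 rose, Timp3 fell, Mmp2 and Mmp3 did not pass, and Mmp10 and Mmp7 are described without a count of calls, since their counts lie almost wholly in KO mice. Over all genes tested 74.7% passed, 37.5% higher and 37.2% lower, so passing is the usual state of a gene in this comparison. The libraries of the groups did not overlap for Mmp12, Timp1 and Timp3, nor for Mmp10, against 14.3% of all genes tested.

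Mmp10, a stromelysin that activates other pro-Mmps, was close to undetected in WT mice. Of the 11 WT/PEG libraries 7 had no count, and the highest had 0.108 CPM, below the floor. In KO/PEG the libraries ranged from 0.826 to 8.7 CPM with a median of 3.24 CPM. All 13 were above every WT/PEG library. The pooled counts were 779 and 5, a ratio of 119 after division by the totals (exact 95% interval 50.8 to 367, which covers counting error only). Mmp10 entered the fit only through its counts in KO mice, so its difference from WT is a description and no test of it is given.

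Mmp7 showed a like picture at lower counts. It had no count in 9 of 11 WT/PEG libraries and 4 counts over the group, and 238 counts over the KO/PEG libraries, a pooled ratio of 45.4 (17.5 to 168, the same interval). The KO/PEG libraries ranged from 0 to 5.13 CPM with a median of 0.549 CPM. Libraries 31 and 46 stood apart with 3.48 and 5.13 CPM, and the next highest had 1.06 CPM. Without the filter on low counts the log2 fold change was 4.74 (SE 0.80, adjusted p = 2.58e-06 from edgeR).

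Mmp12, which cuts elastin, had 1.1 to 4.43 CPM in WT/PEG with a median of 2.17 CPM. In KO/PEG the levels were 4.68 to 26.1 CPM with a median of 8.58 CPM, and none overlapped WT/PEG. It rose on the log2 scale by 2.14 (SE 0.24, adjusted p = 5.18e-10), a 4.39-fold rise. With the summed macrophage markers of each library as a covariate, chosen after seeing the data, it was 1.58 (adjusted p = 0.00011).

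Mmp9, a gelatinase made by neutrophils and macrophages among others, had 0.136 to 1.79 CPM in WT/PEG and 0.705 to 23 CPM in KO/PEG, with medians of 0.681 and 2.56 CPM. KO/PEG was above every WT/PEG library in 10 of 13. Mmp9 rose on the log2 scale by 2.76 (SE 0.48, adjusted p = 3.2e-06). With 95 counts over WT/PEG, Mmp9 met the filter on low counts only with KO libraries counted, which limits its p-values against WT mice. The spread was the widest of the called members in KO/PEG, with an SD of 122% of the mean, and library 45 alone held 23 CPM where the next highest, library KO_109, had 10.5 CPM.

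Mmp13 had 0.584 to 1.51 CPM in WT/PEG and 0.409 to 4.83 CPM in KO/PEG, with medians of 0.939 and 2 CPM. The groups overlapped: 8 of 13 KO/PEG libraries exceeded the whole WT/PEG range and 2 lay under it. Mmp13 had 124 counts over WT/PEG and passed the filter on low counts partly through KO libraries, which limits its p-value. In the fit Mmp13 had a log2 fold change of 1.20 (SE 0.29, adjusted p = 0.000354), and it did not pass with the length slope (1.15, adjusted p = 0.0546), the smooth muscle markers (0.64, adjusted p = 0.11) or the macrophage markers (0.40, adjusted p = 0.425) of each library as a covariate. Mmp3, the other stromelysin, had 0 to 0.738 CPM in WT/PEG and 0.162 to 2.67 CPM in KO/PEG, and its log2 difference of 0.77 (SE 0.42, adjusted p = 0.0949) did not pass. It passed when a term for animals numbered 100 or above was in the model (1.07, adjusted p = 0.0304). Mmp3 had 56 counts over WT/PEG and met the filter on low counts only with KO libraries counted, which limits its p-values against WT mice.

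Mmp14 had 12.8 to 23.2 CPM in WT/PEG and 23 to 56.1 CPM in KO/PEG, with medians of 18.5 and 38.3 CPM. In 12 of 13 KO/PEG libraries it was above every WT/PEG library. It rose by 1.11 on the log2 scale (SE 0.15, adjusted p = 1.73e-08), or 2.16-fold. For Mmp2, whose pro-enzyme it activates, the groups overlapped: Mmp2 had a median of 23.1 CPM in WT/PEG and 25.6 CPM in KO/PEG, and the log2 difference of 0.16 (SE 0.13, adjusted p = 0.242) did not pass.

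The inhibitors went in opposite directions. Timp1 had 0.448 to 1.15 CPM in WT/PEG and 2.43 to 10.1 CPM in KO/PEG, with medians of 0.64 and 4.97 CPM and no overlap. It rose by 2.86 on the log2 scale (SE 0.33, adjusted p = 9.16e-10), or 7.27-fold. With the length slope as a covariate the value was 0.83 (adjusted p = 0.0799) and did not pass. Timp1 had 89 counts over WT/PEG and met the filter on low counts only with KO libraries counted, which limits its p-values against WT mice. Timp3 had 63.9 to 104 CPM in WT/PEG and 22.1 to 57.3 CPM in KO/PEG, with medians of 76.4 and 34.7 CPM, again with no overlap. The log2 fold change was -1.03 (SE 0.12, adjusted p = 6.68e-10), 2.04-fold lower.

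Markers of other cell types also passed in this comparison, in which 74.7% of all genes did, 37.5% higher and 37.2% lower. Of 10 macrophage markers 7 were higher, with a summed level of 61.1 to 141 CPM in WT/PEG and 123 to 301 CPM in KO/PEG, and none of them was at 0 in a group. Of 4 neutrophil markers tested 3 were higher (0.97 to 3.53 against 1.73 to 22.8 CPM for the sum of 6), with Ly6g at 0 in WT/PEG. Of 5 T cell markers 3 were higher, with sums of 3.73 to 12.4 and 3.14 to 27.9 CPM. Of 6 smooth muscle markers 5 were lower (2522 to 4320 against 1093 to 3515 CPM), and of 7 fibroblast markers 3 were lower (321 to 593 against 192 to 418 CPM). Of 5 endothelial markers 2 were higher and 3 lower, and of 3 mesothelial markers tested 2 were higher. No squamous marker of 6 passed. The part of these cells in the values of the members was not tested beyond the fits with the marker sums.

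**Figure D3:**
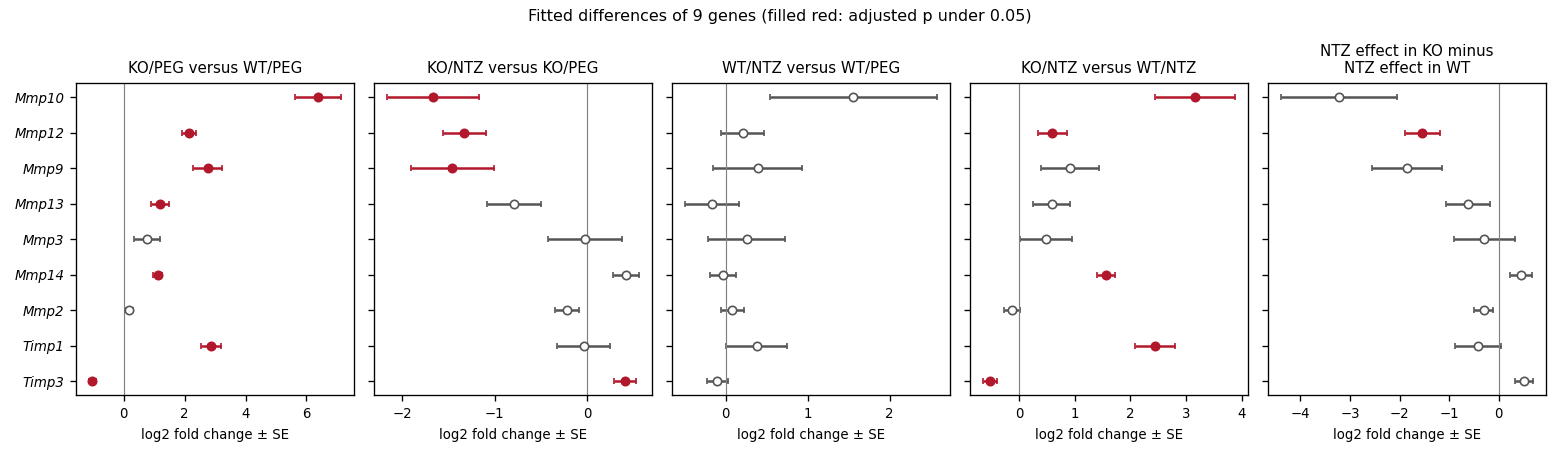
Fitted log2 fold changes with standard errors of the 9 members that passed the filter, one panel for each comparison, with scales that differ between panels and filled red points for adjusted p under 0.05. Timp3 is the only member with a negative value in KO/PEG versus WT/PEG. The points of Mmp10 against WT groups rest on WT levels near 0, and their colour is not read as a test. Mmp12 is the only member that passed in the panel of the difference between the NTZ effects.

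The next comparison, KO/NTZ with KO/PEG, asks what blocking the gastrin receptor does in KO mice. Mmp9, Mmp10 and Mmp12 were lower and Timp3 was higher with NTZ. The other 5 tested members did not pass. Of all genes tested 5.57% passed, 2.97% higher and 2.60% lower, and 0.0403% had libraries that did not overlap between the groups, none of them a member. The KO/PEG libraries enter both this comparison and the one above, so the values of both share them.

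For Mmp12 the KO/NTZ libraries ranged from 2.63 to 7.44 CPM with a median of 4.35 CPM, against the 4.68 to 26.1 CPM of KO/PEG. All 11 lay under the KO/PEG median, and 6 of them under the whole KO/PEG range. The log2 fold change was -1.33 (SE 0.23, adjusted p = 0.000283), 2.52-fold lower. Mmp12 passed in each of the 44 fits that left out one library (-1.42 to -1.15, highest adjusted p = 0.000804) and in the other alternatives run on the whole gene, of which the smallest in size was -0.93 (adjusted p = 0.0303), with the smooth muscle markers as a covariate. Of its 3 transcripts tested singly 1 passed.

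The levels of Mmp10 in the 11 KO/NTZ libraries were 0 to 4.83 CPM with a median of 0.756 CPM, and 6 were below every KO/PEG library. Library 23 held the 4.83 CPM, and the next highest had 2.74 CPM. The log2 fold change was -1.67 (SE 0.50, adjusted p = 0.0366). Mmp10 met the filter on low counts partly through KO/PEG libraries, where it is higher, which limits this p-value. In pooled counts KO/PEG had 779 and KO/NTZ 164, a ratio of 3.54 (exact 95% interval 2.99 to 4.22). The call of Mmp10 was lost in 11 of the 44 fits that left out one library, among them those without KO/PEG libraries 45, 52, 110 or KO_137 (highest adjusted p = 0.0719).

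Mmp9 had 0.166 to 4.68 CPM in KO/NTZ with a median of 1.55 CPM. Of these 11 libraries 9 were below the KO/PEG median of 2.56 CPM, but only 1 was below every KO/PEG library. The log2 fold change was -1.46 (SE 0.45, adjusted p = 0.0426). Without KO/PEG library 45 it was -0.93 (adjusted p = 0.151), and 9 of the 44 fits lost the call. With the smooth muscle markers as a covariate it was -0.56 (adjusted p = 0.497).

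Timp3, the only member called higher with NTZ, had 38 to 71.9 CPM in KO/NTZ with a median of 47.9 CPM, and all 11 libraries were above the KO/PEG median of 34.7 CPM. Timp3 rose on the log2 scale by 0.41 (SE 0.12, adjusted p = 0.0312), or 1.33-fold. The difference of Mmp14 was of like size (0.42, SE 0.14, adjusted p = 0.0718) but did not pass. The call of Timp3 was lost in 9 of the 44 fits (highest adjusted p = 0.0685). It was also lost with the squamous or the smooth muscle markers as a covariate, as was that of Mmp10.

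The calls of Mmp9, Mmp10 and Timp3 lie near the threshold and were lost together when no filter on low counts was used, when only KO groups were fitted, when the libraries numbered 110 were left out, or when only animals numbered below 100 were compared. Mmp12 was then the 1 member called.

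Mmp13 had 0.777 to 2.55 CPM in KO/NTZ with a median of 0.998 CPM. Its log2 difference of -0.79 (SE 0.29, adjusted p = 0.0904) did not pass. Mmp14 was at 30.3 to 76.6 CPM with a median of 52.2 CPM, above the KO/PEG median in 10 of 11 libraries, and its log2 difference of 0.42 (SE 0.14, adjusted p = 0.0718) did not pass. Timp1 was at 1.96 to 10.5 CPM with a median of 3.73 CPM, Mmp3 at 0.196 to 1.42 CPM, and Mmp2 at 14.5 to 30.5 CPM. Their log2 differences of -0.04 (SE 0.29, adjusted p = 0.936), -0.02 (SE 0.40, adjusted p = 0.976) and -0.22 (SE 0.13, adjusted p = 0.263) did not pass, and those of Timp1 and Mmp3 changed sign with the processing. Mmp7 had 0 to 0.756 CPM in KO/NTZ and 53 counts over the group. Its pooled ratio of KO/PEG to KO/NTZ was 3.35 (2.48 to 4.6), which rests largely on KO/PEG libraries 31 and 46, and without the filter on low counts the log2 difference of -1.60 (SE 0.59, adjusted p = 0.126) did not pass.

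Markers that moved beside these genes were 3 of 6 for smooth muscle, all higher (Acta2, Des and Tagln, with sums of 1093 to 3515 CPM in KO/PEG and 2155 to 4777 CPM in KO/NTZ), 3 of 5 for endothelium, all lower (Cdh5, Kdr and Tek), and 2 of 3 for mesothelium, both lower (Msln and Upk1b, 5.53 to 20.5 and 1.17 to 11.2 CPM). The endothelial sum had a median of 211 CPM and at most 359 CPM in KO/PEG and ran from 73.6 to 669 CPM in KO/NTZ, where libraries 29, 30, 36 and 37 held 446 to 669 CPM. Pecam1 of the endothelial list (0.58, adjusted p = 0.152) and Upk3b of the mesothelial list (1.65, SE 0.57, adjusted p = 0.0761) had values of the other sign that did not pass. Of 9 gland markers 2 were lower: Chga, a general marker of neuroendocrine cells, and Hdc, which marks the enterochromaffin-like cells that respond to gastrin. None of the macrophage (10), neutrophil (4), T cell (5), fibroblast (7) or squamous (6) markers tested passed. The macrophage markers summed to 123 to 301 CPM in KO/PEG and 115 to 235 CPM in KO/NTZ, and Mmp12 kept a log2 fold change of -1.20 (adjusted p = 0.000422) with this sum as a covariate.

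In WT mice, the comparison of WT/NTZ with WT/PEG asks what the antagonist does where gastrin is not raised by the gene loss. No member passed with edgeR, 1.03% of all genes did, and no member had an unadjusted p under 0.05. DESeq2 called none either. Mmp12 had 2.23 to 4.62 CPM in WT/NTZ with a median of 2.8 CPM, and the log2 difference of 0.21 (SE 0.26, adjusted p = 0.947) did not pass. The WT/NTZ library WT_118 held the highest WT level of Mmp3 (1.89 CPM), Mmp10 (0.73 CPM), Mmp12 (4.62 CPM), Timp1 (2.74 CPM) and Mmp14 (25.2 CPM). In this library the squamous markers summed to 512 CPM, which was the median of the 9 WT/NTZ libraries, and the macrophage markers to 249 CPM, the highest of all WT libraries. Its T cell markers summed to 23.5 CPM, also the highest of the WT libraries, and its gland markers to 115252 CPM, the lowest of them. Their part in its values was not tested. Without it the log2 difference of Mmp10 was -0.46 in place of 1.56, and that of Timp1 was -0.09 in place of 0.38.

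The genotype comparison under NTZ, KO/NTZ with WT/NTZ, gave higher Mmp12, Mmp14 and Timp1 and lower Timp3, where 72.4% of all genes passed. Mmp14 had 9.84 to 25.2 CPM in WT/NTZ and 30.3 to 76.6 CPM in KO/NTZ, and a log2 fold change of 1.56 (SE 0.16, adjusted p = 1.69e-10). Timp1 rose by 2.44 on the log2 scale (SE 0.36, adjusted p = 1.48e-07), but the value was 0.63 (adjusted p = 0.229) with the length slope as a covariate. Mmp10 had 0 counts in 7 of 9 WT/NTZ libraries and in 1 of 11 KO/NTZ libraries. Without library WT_118 Mmp3 also passed (1.16, adjusted p = 0.0239). This p-value has the limit given above, since Mmp3 met the filter on low counts only with KO libraries counted. For Mmp12 the log2 fold change was 0.59 (SE 0.26, adjusted p = 0.0411), and this call was lost in 10 of the 44 fits that left out one library (highest adjusted p = 0.0831) and in several other settings, with the macrophage markers as a covariate (0.36, adjusted p = 0.224) among them. Markers that passed in this comparison were 4 higher and 3 lower of 10 for macrophages, 2 higher and 1 lower of 4 for neutrophils, 2 higher and 3 lower of 7 for fibroblasts, 1 higher and 3 lower of 5 for endothelium, and 2 higher of 3 for mesothelium. Lower ones were also 2 of 6 for smooth muscle, 1 of 5 for T cells and 4 of 6 for squamous forestomach, and their part in the values was not tested. Timp3 was lower by a log2 fold change of -0.53 (SE 0.13, adjusted p = 0.000432), and with the length slope as a covariate the value was -0.43 (adjusted p = 0.121). The log2 differences of Mmp9 (0.91, SE 0.52, adjusted p = 0.109) and Mmp13 (0.58, SE 0.33, adjusted p = 0.111) did not pass.

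Whether NTZ acted differently in KO and WT mice was tested as the difference between its effects. Mmp12 passed, with a log2 value of -1.54 (SE 0.35, adjusted p = 0.0202): it fell with NTZ in KO mice and had a small difference of the other sign, which did not pass, in WT mice. Of all genes tested 0.953% passed. The call of Mmp12 was held in all 44 fits that left out one library. It was lost with the smooth muscle markers (-1.27, adjusted p = 0.0542) or the macrophage markers (-1.22, adjusted p = 0.0812) as a covariate. The differences for Mmp10 (-3.23, SE 1.17, adjusted p = 0.194), Mmp9 (-1.85, SE 0.70, adjusted p = 0.226) and Timp3 (0.51, SE 0.18, adjusted p = 0.172) did not pass, so for these genes the NTZ effect was not shown to differ between the genotypes. Mmp14 (0.45, SE 0.22, adjusted p = 0.403) passed only with the macrophage markers as a covariate (0.89, adjusted p = 0.0124).

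The counts of Mmp12 and Mmp9 were spread over several annotated transcripts, among which kallisto divides shared reads by estimation. Of the 7 Mmp12 transcripts 3 passed the filter on transcripts. The one annotated as nonsense_mediated_decay, ENSMUST00000127722 (chr9:7347406-7358888), held 36.1% of the mean Mmp12 level in WT/PEG, 61.8% in KO/PEG and 50.2% in KO/NTZ. The retained_intron transcript, ENSMUST00000148005, held 38.8%, 23.1% and 40.5%. The protein_coding ENSMUST00000065079 held only 3.82%, 1.24% and 0.913%, and the protein_coding ENSMUST00000120655, from the upstream start, 19.5%, 13.7% and 8.44%. In the fit on transcripts ENSMUST00000127722 had 0.909 ± 0.562 CPM in WT/PEG (SD, n = 11), 6.82 ± 5.09 CPM in KO/PEG (SD, n = 13) and 2.20 ± 1.69 CPM in KO/NTZ (SD, n = 11), and its fall with NTZ passed (-1.65, SE 0.46, adjusted p = 0.038). The fall of ENSMUST00000148005 did not (-0.52, SE 0.25, adjusted p = 0.269). The difference between these transcripts was not tested.

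Of the 4 Mmp9 transcripts 2 passed the filter. The full-length protein_coding ENSMUST00000017881 (chr2:164948219-164955850) held 60% of the Mmp9 level in WT/PEG, 50.3% in KO/PEG and 29.1% in KO/NTZ. ENSMUST00000144917 (chr2:164954386-164955850), a processed_transcript at the 3′ end, held 35.2%, 49.6% and 69.2%. With NTZ in KO mice the log2 differences were -2.21 (SE 0.64, adjusted p = 0.0503) for the first and -0.98 (SE 0.54, adjusted p = 0.351) for the second, neither of which passed. For the other members 1 transcript held nearly all the counts, except Timp1, where ENSMUST00000115342 held 12.3% in WT/PEG, 7.18% in KO/PEG and 18.6% in KO/NTZ.

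**Figure D4:**
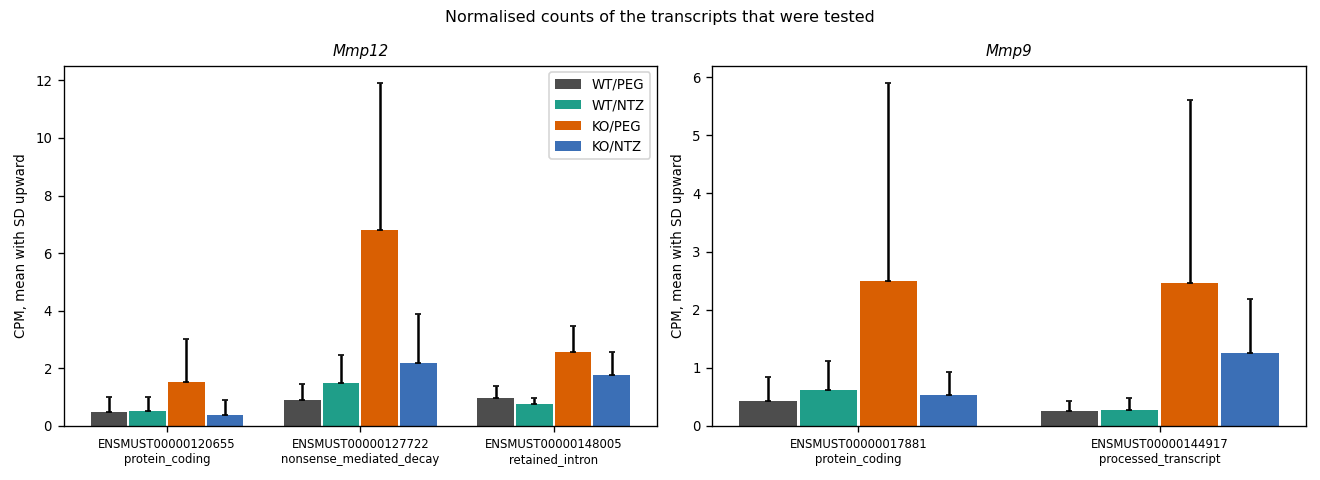
Normalised counts (CPM, mean with the SD drawn upward) of the Mmp12 and Mmp9 transcripts that passed the filter, over the libraries of each group. ENSMUST00000127722 holds most of the Mmp12 level in KO/PEG, at 6.82 CPM, and the Mmp9 level in KO/PEG is shared about evenly by both transcripts (2.5 and 2.46 CPM).

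Members were also compared with each other over the 13 KO/PEG libraries, as log2 CPM, in 36 pairs of the 9 members tested, with p from 100000 permutations (two-sided). Mmp9 and Mmp12 had Pearson's r = 0.80 (permutation p = 0.00097, adjusted p = 0.0349 over the 36 pairs) and Spearman's rho = 0.72 (permutation p = 0.00695, adjusted p = 0.125). Without the 2 libraries farthest from the median of Mmp9 r was 0.70. It was 0.92 over the 6 animals numbered below 100, 0.64 over the 7 numbered 100 or above, and 0.41 over the 11 KO/NTZ libraries. No other pair passed on Pearson's r, and none passed on Spearman's rho. Mmp10 and Mmp12 had r = 0.68 (permutation p = 0.0102, adjusted p = 0.136) with rho = 0.53 (permutation p = 0.0673, adjusted p = 0.197), and r = 0.45 without the farthest libraries. Mmp9 and Mmp13 had r = 0.67 (permutation p = 0.0113, adjusted p = 0.136) with rho = 0.79 (permutation p = 0.00217, adjusted p = 0.0781), and r = 0.50 without the farthest libraries. Libraries of one tissue share their cell mixture and RNA quality, and the part of either was not tested.

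**Figure D5:**
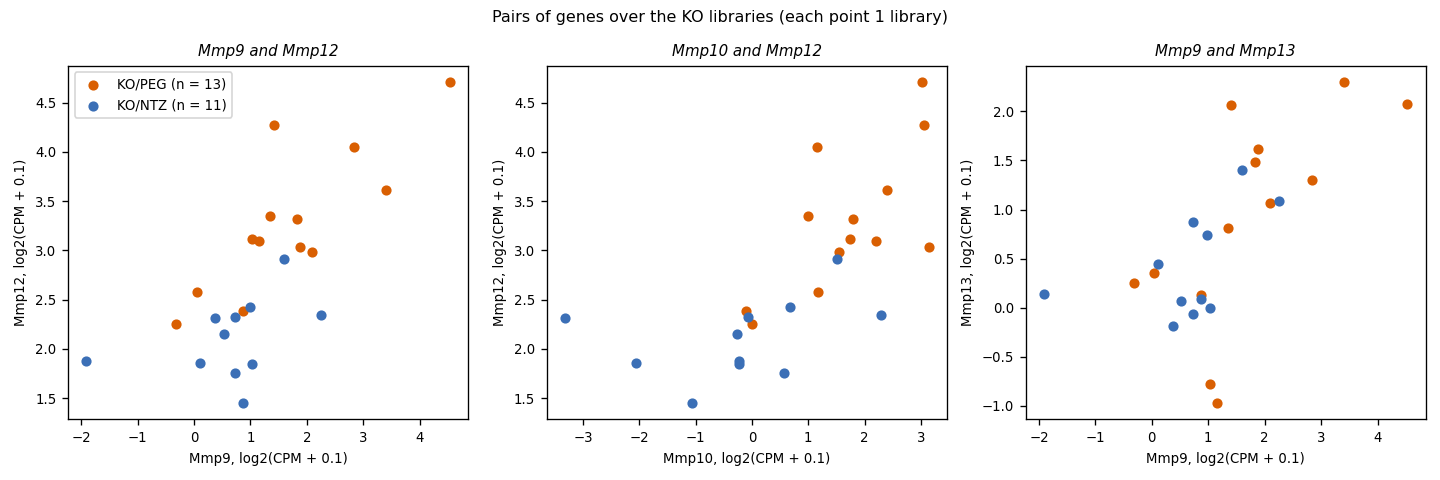
Levels of Mmp9 and Mmp12, Mmp10 and Mmp12, and Mmp9 and Mmp13 in the KO libraries as log2(CPM + 0.1), with each point 1 library of KO/PEG (n = 13) or KO/NTZ (n = 11). Libraries with more Mmp9 also hold more Mmp12 in KO/PEG (r = 0.80), with library 45 at the upper right.

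The genes whose pattern was most like that of each member were sought among all 14893 genes over the 24 KO libraries, after removal of each group's mean, as a description with no test. For Mmp12 they were Gpnmb (r = 0.85), a membrane glycoprotein gene that macrophages express, Slc16a6 (r = 0.75) and Celf4 (r = 0.70). Gpnmb was also among those most like Mmp9 (r = 0.74), with Gm14137 (r = 0.77) and Gpd1 (r = 0.73), and Slc16a6 (r = 0.72) among those most like Mmp13, with Prrg1 (r = 0.78) and Aldh1a3 (r = 0.72). Mmp10 was most like Rdh10 (r = 0.82), F3 (r = 0.75), which encodes tissue factor, and Bend3 (r = 0.66). For Mmp3 they were Cmklr1 (r = 0.75), Pde1b (r = 0.75) and Clec10a (r = 0.72), a lectin of macrophages and dendritic cells. Mmp2 was most like Ltbp4 (r = 0.91), a matrix protein that binds latent TGF-beta, Tuba1a (r = 0.82) and Cmtm3 (r = 0.80). For Mmp14 they were Naglu (r = 0.87), Irx3 (r = 0.86) and Vps37c (r = 0.86), for Timp1 Slc35e4 (r = 0.89), Rangap1 (r = 0.89) and Tubg1 (r = 0.88), and for Timp3 Sirpa (r = 0.74), Slc38a1 (r = 0.72) and Serpina3g (r = 0.71).

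Other genes of the same system were read from fixed lists. With genotype 74.7% of all genes tested passed, and with NTZ in KO mice 5.57%, and the list counts are read beside these shares. Of 15 further Mmps 8 were tested, and in KO/PEG versus WT/PEG 3 were higher (Mmp11, Mmp15 and Mmp23) and 3 lower (Mmp16, Mmp17 and Mmp19), with a median log2 difference of -0.06. Mmp15, another membrane-anchored Mmp, rose by 1.26 (SE 0.10, adjusted p = 4.93e-14), and Mmp23 by 0.85 (SE 0.14, adjusted p = 6.35e-07). No further Mmp passed with NTZ in KO mice in edgeR's test (median 0.15), although 5 of the 8 had an unadjusted p under 0.05. Among 3 other inhibitors Reck, a membrane-bound inhibitor, had a log2 fold change of -1.71 (SE 0.21, adjusted p = 1.92e-09) with genotype, Timp4 was higher by 0.77 (SE 0.18, adjusted p = 0.000208), Timp2 did not pass, and with NTZ in KO mice none passed or had an unadjusted p under 0.05 in edgeR's test.

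A further list joined genes of the plasminogen system with other genes that act on pro-Mmps or bind Mmps, such as Furin, Pcsk5, Klk1 and Lcn2. Of its 9 genes tested 5 were higher and 2 lower in KO/PEG than in WT/PEG (median 1.24), a share near the 74.7% of all genes, and 3 were lower and none higher in KO/NTZ than in KO/PEG (median -0.25, against -0.011 for all genes). Plaur, the urokinase receptor, rose with genotype by 3.10 (SE 0.24, adjusted p = 2.25e-14), and its difference of -0.55 (adjusted p = 0.116) with NTZ did not pass. For Lcn2, which binds and protects Mmp9, the values were 3.64 (SE 0.59, adjusted p = 8.19e-07) and -2.57 (SE 0.54, adjusted p = 0.00234). Plat, the tissue plasminogen activator, had 1.72 (SE 0.25, adjusted p = 1.46e-07) and -0.99 (SE 0.25, adjusted p = 0.0106), and Serpine2 1.24 (SE 0.16, adjusted p = 9.67e-09) and -0.69 (SE 0.16, adjusted p = 0.00558).

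Of 13 Adam and Adamts proteases 5 were higher and 4 lower with genotype (median -0.12). The counts of this and the next lists stand beside 74.7% of all genes with genotype and 5.57% with NTZ in KO mice. Passing with genotype is thus the usual state of a gene. With NTZ in KO mice Adam12 was lower (-1.17, SE 0.37, adjusted p = 0.0488) and Adamts15 higher (0.43, SE 0.13, adjusted p = 0.0426). Of 10 genes for inducers of Mmps and AP-1 subunits 5 were higher with genotype (Tnf, Tgfb1, Fosl1, Junb and Jund, median 0.53). With NTZ in KO mice Il1b, a cytokine that induces several Mmps, was lower (-1.06, SE 0.32, adjusted p = 0.0372) while the AP-1 subunits tested did not pass. Of 12 matrix substrates 4 were higher and 3 lower with genotype (median 0.04), and Col1a1, Col1a2 and Col4a1 were lower with NTZ in KO mice. Their log2 fold changes were -0.62 (SE 0.14, adjusted p = 0.00409), -0.61 (SE 0.16, adjusted p = 0.013) and -0.42 (SE 0.10, adjusted p = 0.00775), and the median of the 12 was -0.44. No gene of the lists in these last paragraphs passed in WT/NTZ versus WT/PEG or in the difference between the NTZ effects. Among the marker lists, 2 of 9 gland markers, Chga and Hdc, passed in that difference, both lower.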

How the data were processed

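Libraries were made from mRNA of the gastric corpus with a stranded kit and read as single 75-base reads. The authors quantified GRCm38 transcripts with kallisto 0.42.4 and deposited the estimated counts of 94080 transcripts per library without normalization. The annotation release was not given in the sources used here. The authors tested with Sleuth, which was not repeated here. Counts were rounded, and 92284 transcripts were paired with GENCODE vM21 genes and summed by gene name. The 1796 unpaired ones held 0.351% to 1.33% of the counts. Genes passed filterByExpr (minimum count 10, minimum total 15), and edgeR 4.0.16 in R 4.3.3 fitted a mean per group over all 44 libraries with TMM normalization and no covariate. p-values were adjusted by Benjamini-Hochberg over 14893 genes. DESeq2 1.42.0 was an alternative. The fits were tested on simulated data.

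Members and lists were chosen with earlier results of these data known. The text names all members, list genes that passed with NTZ in KO mice or in the difference between NTZ effects, otherwise the 2 with the smallest p for genotype, and for each member the 3 genes of highest Pearson r. Other list genes (Plaur, Timp2, the called Mmps, and called AP-1 genes, markers) were added after their values were seen, and 1 listed gene is not reported here. Log2 CPM used a prior count of 2, and 3 counts per library were the floor. Intervals and floors cover counting error only: the reads carry no molecular identifiers, so they are not separate molecules. Levels per length are TPM computed here from the counts and annotated transcript lengths, with no TMM scaling. Libraries are named by the animal number in their label, some with its genotype prefix. A WT/PEG pair shares number 172, and number 110 occurs in KO/PEG and KO/NTZ. The meaning of numbers at or above 100 (11 WT/PEG and 7 KO/PEG, 4 WT/NTZ and 1 KO/NTZ library) was not given in the sources used here. The alternatives are in the closing section. Figures were drawn with matplotlib 3.10.9.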

Additional observations from a re-analysis of the deposited data

Results flagged for a closer look

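The WT/NTZ library WT_118 stood apart from the other 8 libraries of its group for 4 of the 10 members, by Dixon's test for one far value. It had 1.89 CPM of Mmp3 where the next highest had 0.624 CPM, 0.73 CPM of Mmp10 (next 0.246 CPM), 4.62 CPM of Mmp12 (next 3.44 CPM) and 2.74 CPM of Timp1 (next 1.02 CPM). For normally spread values chance gives such a value in about 1 of 20 groups, but Mmp10 was at 0 in 7 of the 9 libraries. Mmp12 only just reached the cutoff ratio of 0.493. The genes share this library, and groups of more than 10 libraries could not be tested this way. Its macrophage markers summed to 249 CPM, and their part was not tested.

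The NTZ effect on Mmp12 differed between KO and WT mice, with a log2 value of -1.54 (SE 0.35, edgeR adjusted p = 0.0202).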

How the results depend on the processing

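No paired analysis was possible because the groups share only the animal number 110. In KO/NTZ versus KO/PEG 4 members were called, but 1 (Mmp12) with only the compared groups fitted, with no filter on low counts, without the libraries numbered 110, within animals numbered below 100 or in the fit on transcripts, 2 with the squamous (Mmp9 and Mmp12) or smooth muscle markers (Mmp12 and Mmp14) as a covariate, and 1 to 5 without one library. Libraries whose absence left 1 call were KO/PEG 45 and KO/NTZ 24, 51 and 110, and those that left 2 were KO/PEG 31 and KO/NTZ 26, 30, 36 and 37. In KO/NTZ versus WT/NTZ Mmp12, Mmp14, Timp1 and Timp3 were called, and of these only Mmp14 with the length slope. The difference between NTZ effects called 1 member, 0 with the smooth muscle markers and 0 in the fit on transcripts, and with the macrophage markers 1, Mmp14 in place of Mmp12. Of the member pairs 1 passed, and 2 without KO/PEG library 110. In KO/PEG versus WT/PEG Mmp9, Mmp12, Mmp13, Mmp14, Timp1 and Timp3 were called in each fit without one library. No member was called in those fits of WT/NTZ versus WT/PEG. Calls of Mmp10 against WT mice are not counted here. The marker covariates were chosen after seeing the data, and the cause of these changes was not tested.

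Values of members that did not pass changed sign in 52 of 2533 refits. With the macrophage markers they were -0.33 (Mmp2) and -0.69 (Mmp3) in KO/PEG versus WT/PEG, 0.45 (Mmp3) and 0.30 (Timp1) in KO/NTZ versus KO/PEG, -0.09 (Mmp2), -0.49 (Mmp3) and -0.25 (Timp1) in WT/NTZ versus WT/PEG, and 0.01 (Mmp2), 0.94 (Mmp3) and 0.55 (Timp1) in the difference. In KO/NTZ versus KO/PEG Mmp3 had 0.19 without the libraries numbered 110 and 0.22 with a term for animals numbered 100 or above, and Timp1 had 0.11 and 0.27, 0.34 within animals numbered below 100 and 0.12 with the smooth muscle markers. In WT/NTZ versus WT/PEG Mmp14 had 0.00 with only the compared groups, 0.23 within animals numbered 100 or above, 0.05 with the term and 0.02 with the smooth muscle markers, Mmp13 had 0.07 within that class, Timp1 -0.01 with the length slope and -0.19 in the fit on transcripts, and Mmp3 -0.17 and Mmp9 -0.02 with the squamous markers. Without one library the log2 values ran from -0.19 to 0.31 (Mmp3) and -0.19 to 0.07 (Timp1) in KO/NTZ versus KO/PEG, from -0.42 to 0.41 (Mmp3), -0.46 to 1.93 (Mmp10), -0.12 to 0.05 (Mmp14) and -0.09 to 0.49 (Timp1) in WT/NTZ versus WT/PEG, and from -0.45 to 0.39 (Mmp3) and -0.57 to 0.05 (Timp1) in the difference. Depth limits Mmp3, Mmp7 and Mmp10, whose WT levels lie near the floor of 3 counts.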
